A study of Mus musculus with 6 samples.

Results

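The ubiquitin ligases of muscle atrophy, the FOXO transcription factors and the genes that act with them were followed in mouse skeletal muscle. The set was given by name as 10 genes: the ligase genes Fbxo32, Trim63, Fbxo30 and Fbxo40, the FOXO genes Foxo1 and Foxo3, and Mstn, Klf15, Gadd45a and Cdkn1a. A gene was taken as measured where a probe set of the array carried its symbol alone. This held for 9 of the 10 genes, each with 1 probe set, out of 35557 probe sets on the array and 19938 genes tested. The probe set of Cdkn1a, the cell cycle inhibitor p21, is assigned to 2 gene symbols, so no value is given for it.

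Expression was measured on Affymetrix MoGene arrays in 6 mice, 3 labelled transgenic (TG) and 3 labelled wild type (WT), in a series whose title names SOCS-3 in muscle. Each array had a subject of its own. Neither the sequence carried by the transgene, its promoter, the muscle taken, the strain nor the age is given in the sources used here. Values are log2 expression, so a difference of 1 is a doubling, and differences are TG minus WT throughout. With 3 arrays per group, the number of arrays limits the precision of every comparison.

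Skeletal muscle loses protein mainly through the ubiquitin-proteasome system and autophagy. When signalling from insulin and IGF1 through AKT is low, FOXO factors enter the nucleus and switch on atrophy genes, among them the ligase genes Fbxo32 (atrogin-1) and Trim63 (MuRF1). Glucocorticoids and myostatin are known to push in the same direction, the former partly through the transcription factor KLF15.

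Promoter sequence is shown for the FOXO genes Foxo1 and Foxo3 and for Trim63 and Klf15, since Trim63 is a known target of FOXO factors and of the glucocorticoid receptor, and Klf15 of the receptor. Each sequence is the 250 bases before the RefSeq start of the gene in GRCm38.p6, 5′ to 3′ on the strand of the gene, at chr4:134314870-134315119 (plus strand) for Trim63, chr3:52268087-52268336 (plus) for Foxo1, chr10:42276696-42276945 (minus) for Foxo3 and chr6:90462326-90462575 (plus) for Klf15. Capitals mark matches to the motifs that were searched. These were the FOXO element GTAAACA on either strand, the copies of GAACA that face each other across 3 bases as in a glucocorticoid response element, and the E-box CACGTG.
Trim63: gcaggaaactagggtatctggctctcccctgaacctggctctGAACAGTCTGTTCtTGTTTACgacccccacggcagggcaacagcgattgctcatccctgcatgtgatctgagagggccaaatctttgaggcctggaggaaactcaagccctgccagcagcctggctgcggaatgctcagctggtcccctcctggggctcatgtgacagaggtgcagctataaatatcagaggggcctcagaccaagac
Foxo1: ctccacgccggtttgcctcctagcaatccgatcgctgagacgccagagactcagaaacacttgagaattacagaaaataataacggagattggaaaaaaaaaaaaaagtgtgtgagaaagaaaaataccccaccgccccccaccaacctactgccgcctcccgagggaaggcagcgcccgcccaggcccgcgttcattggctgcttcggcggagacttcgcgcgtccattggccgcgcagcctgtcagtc
Foxo3: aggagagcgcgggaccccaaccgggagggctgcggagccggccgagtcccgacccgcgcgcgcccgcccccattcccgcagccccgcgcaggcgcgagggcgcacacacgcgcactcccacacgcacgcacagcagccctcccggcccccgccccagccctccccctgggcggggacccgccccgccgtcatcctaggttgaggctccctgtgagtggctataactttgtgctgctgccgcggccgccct
Klf15: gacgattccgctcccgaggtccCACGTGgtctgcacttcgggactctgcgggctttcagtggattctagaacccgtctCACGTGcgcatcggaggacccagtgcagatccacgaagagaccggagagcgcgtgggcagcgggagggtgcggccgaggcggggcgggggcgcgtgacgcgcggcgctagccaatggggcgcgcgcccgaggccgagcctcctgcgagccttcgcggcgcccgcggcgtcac

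In Trim63 the facing pair begins 208 bases before the start and the FOXO element 194 bases before it, with 1 base between them. Klf15 held 2 E-boxes, beginning 228 and 172 bases before the start. Of 32851 promoter windows of the same length in the RefSeq table, 3.17% held the FOXO element, 0.0396% (13 windows) the facing pair and 6.02% the E-box. Windows were found for 9 of the 10 listed genes, Cdkn1a among them, and Fbxo32 had none. Apart from Trim63 and Klf15, no window of these genes held a match to any of these motifs, which says nothing of sites elsewhere. A GAACA alone, or facing copies at another spacing, did not count as a match. A match is a string of letters and not a measured binding site.

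Fibre markers were high on every array, and the arrays resembled each other closely. The 14 skeletal muscle fibre markers averaged 13.28 on the TG arrays and 13.30 to 13.33 on the WT arrays. Array medians lay between 5.98 and 6.04. Socs3 stood at 7.12, 7.25 and 7.07 on the TG arrays and at 7.43, 7.41 and 7.37 on the WT arrays, a difference of -0.26 (SE 0.07; limma, adjusted p = 0.660). All 3 TG values lay below the WT values, so Socs3 was not higher on the arrays labelled TG. Whether this probe set reads the transgene is not known.

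None of the 9 measured genes passed the test between TG and WT. The test was limma's moderated test with p-values adjusted over the 19938 genes, of which 1, or 0.00502%, passed at 0.05. This was Casp12, named after its values were seen. Without adjustment, 0 of the 9 genes had a p under 0.05, where 6.75% of all genes did. The TG and WT values overlapped in all 9, whereas they did not overlap for 12.3% of all genes. The smallest adjusted p among the 9 was 0.749. The median difference of the 9 genes was 0.08, with 7 above 0 and 2 below 0, against a median of -0.02 over all genes, of which 43.8% were above 0. The median absolute difference was 0.076 for these genes and 0.074 over all genes.

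**Figure D1:**
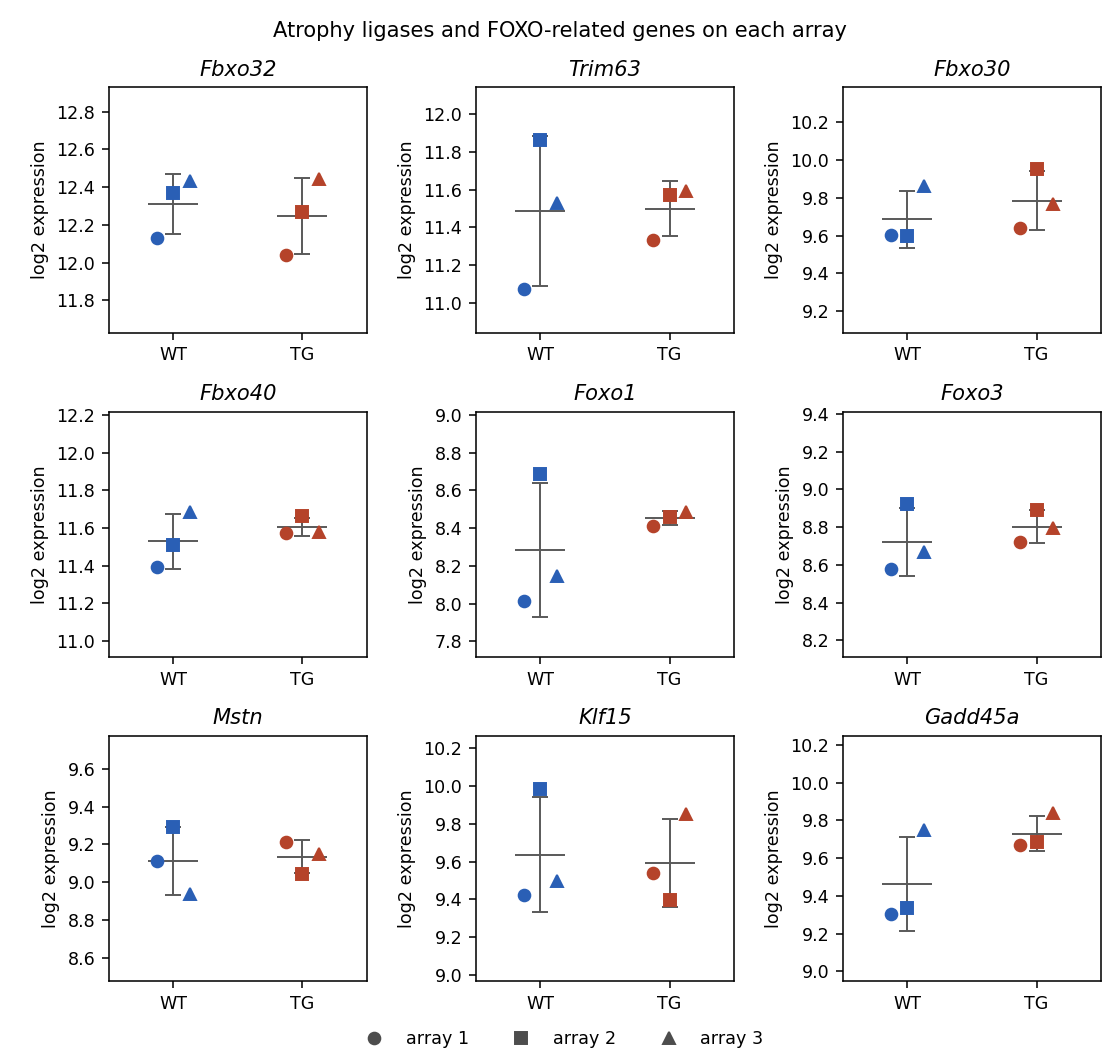
Log2 expression (vertical axis, each panel spanning the same number of log2 units) of the 9 measured genes in WT (blue) and TG (red) muscle. Each point is 1 array, with its shape giving the array number, and bars are the mean ± SD of 3 arrays; the groups overlap in every panel.

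Trim63 encodes MuRF1, a RING-finger ligase that binds titin and ubiquitinates myosin and other thick filament proteins. Its level was 11.33, 11.57 and 11.59 on TG arrays 1, 2 and 3 and 11.07, 11.86 and 11.53 on WT arrays 1, 2 and 3. The lowest and the highest of the 6 values were both WT, and the TG values lay between them. The mean was 11.50 ± 0.15 over the TG arrays and 11.49 ± 0.40 over the WT arrays (SD, n = 3 each). They differed by 0.01 (SE 0.19; limma, adjusted p = 0.994). The 95% interval of the difference ran from -0.43 to 0.45, or from 0.744-fold to 1.36-fold.

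Fbxo32 encodes atrogin-1, the F-box subunit of an SCF ligase with known substrates in the myoblast factor MyoD and the translation factor eIF3f. It read 12.04, 12.27 and 12.44 in TG and 12.13, 12.37 and 12.43 in WT. The WT values all lay inside the TG range, whose ends were TG arrays 1 and 3. The difference was -0.06 (SE 0.12; limma, adjusted p = 0.944), with a TG mean of 12.25 ± 0.20 and a WT mean of 12.31 ± 0.16 (SD, n = 3 each). Its interval, -0.35 to 0.23, corresponds to 0.785-fold to 1.17-fold.

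Fbxo30 encodes MUSA1, an F-box ligase that BMP signalling restrains during denervation. It stood at 9.64, 9.95 and 9.77 in TG and at 9.60, 9.60 and 9.86 in WT. TG array 2 was the highest array and WT arrays 1 and 2 the lowest. The difference of 0.10 (SE 0.11; limma, adjusted p = 0.878) was smaller than the range within either group.

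Fbxo40 encodes a muscle F-box protein that directs IRS1 degradation after IGF1 stimulation. TG values were 11.57, 11.66 and 11.58, within 0.087 of each other, and WT values were 11.39, 11.51 and 11.68. The WT arrays held both the lowest and the highest value. The difference was 0.08 (SE 0.09; limma, adjusted p = 0.882), and its interval, -0.13 to 0.28, was the narrowest of the 9.

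Foxo1 and Foxo3 encode the forkhead factors that AKT phosphorylates and keeps in the cytoplasm. Foxo1 measured 8.41, 8.46 and 8.48 in TG against 8.01, 8.69 and 8.15 in WT. The 3 TG values lay within 0.072 of each other and inside the WT range, which spanned 0.67. The TG mean was 8.45 ± 0.04 and the WT mean 8.28 ± 0.36 (SD, n = 3 each), and they differed by 0.17 (SE 0.16, interval -0.21 to 0.55; limma, adjusted p = 0.861). It was 0.37 without WT array 2 and 0.03 without WT array 1. Foxo3 measured 8.72, 8.89 and 8.79 in TG and 8.58, 8.92 and 8.67 in WT. Here too WT array 2 was highest and WT array 1 lowest. The Foxo3 difference was 0.08 (SE 0.10, interval -0.16 to 0.32; limma, adjusted p = 0.893). FOXO activity is set largely by phosphorylation and location, which these arrays do not measure.

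Mstn encodes myostatin, the TGF-beta family ligand that limits muscle mass through activin type II receptors. Its values were 9.21, 9.04 and 9.15 in TG and 9.11, 9.29 and 8.93 in WT, so that the TG arrays again lay inside the WT range. The difference was 0.02 (SE 0.10, interval -0.22 to 0.26; limma, adjusted p = 0.977).

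Klf15 encodes a Krüppel-like factor that the glucocorticoid receptor induces in muscle and that promotes branched-chain amino acid breakdown. It read 9.54, 9.39 and 9.85 in TG and 9.42, 9.98 and 9.50 in WT. In each group 1 array, TG array 3 and WT array 2, stood above the rest. The difference was -0.04 (SE 0.17; limma, adjusted p = 0.975), with an interval from -0.44 to 0.36.

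Gadd45a encodes a stress-inducible nuclear protein that takes part in the atrophy of denervated and fasted muscle. It had the largest difference of the 9. TG values were 9.67, 9.68 and 9.84, and WT values were 9.30, 9.34 and 9.75. The overlap came from WT array 3, which lay above TG arrays 1 and 2, while WT arrays 1 and 2 were below every TG array. The TG mean was 9.73 ± 0.09 and the WT mean 9.46 ± 0.25 (SD, n = 3 each). The difference was 0.27 (SE 0.13), or 1.20-fold, with an interval of -0.03 to 0.56, and it did not pass (limma, unadjusted p = 0.0704, adjusted p = 0.749). Without WT array 3 it was 0.41, and without WT array 1 it was 0.19.

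Changes larger than a certain size lie outside these intervals. Over the 9 genes, the lowest bound of any 95% interval was 0.735-fold, for Klf15, and the highest 1.48-fold, for Gadd45a. These are intervals of single genes, without adjustment for the number of genes. The difference between groups was smaller than the range over the 3 WT arrays in all 9 genes, and smaller than the range over the 3 TG arrays in 7, the exceptions being Foxo1 and Gadd45a.

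**Figure D2:**
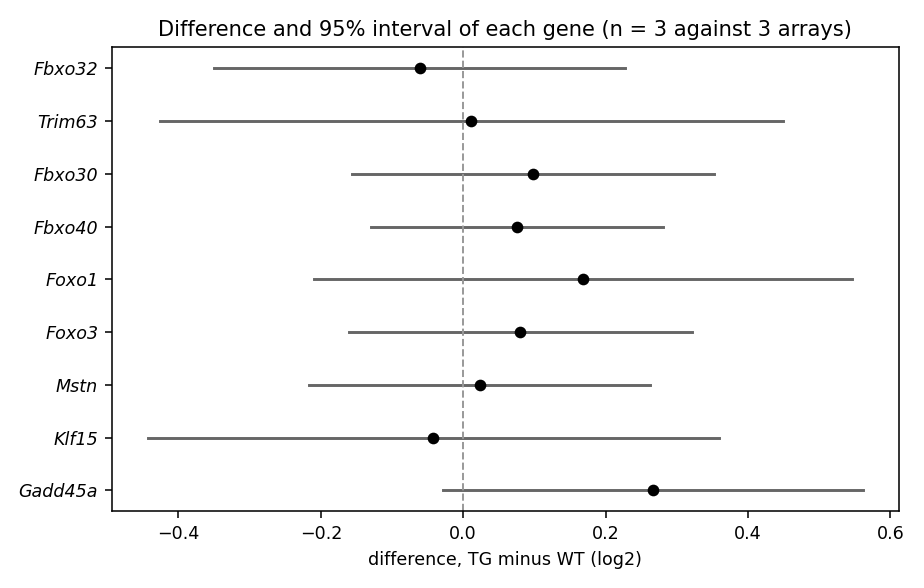
Difference between TG and WT (horizontal axis, log2) for each of the 9 genes, as a point with its 95% interval from the limma fit. All 9 intervals cross 0, and that of Gadd45a reaches least far below it.

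The WT arrays differed more among themselves than the TG arrays did for most of these genes. The SD over WT arrays was above that over TG arrays in 7 of the 9 genes, with medians of 0.181 in WT and 0.0929 in TG. Over all genes tested, 49.6% had the larger SD in WT, and the medians were 0.0987 in WT and 0.101 in TG. Foxo1 and Trim63 account for the widest WT spreads, 0.36 and 0.40. WT array 2 was the highest of the 6 arrays for 5 of the 9 genes (Trim63, Foxo1, Foxo3, Mstn and Klf15), as it was for 15.5% of all genes. WT array 1 was the lowest for 5 (Trim63, Foxo1, Foxo3, Fbxo40 and Gadd45a), against 13.8% of all genes. These arrays were singled out after the values were seen, and no test was made of them.

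**Figure D3:**
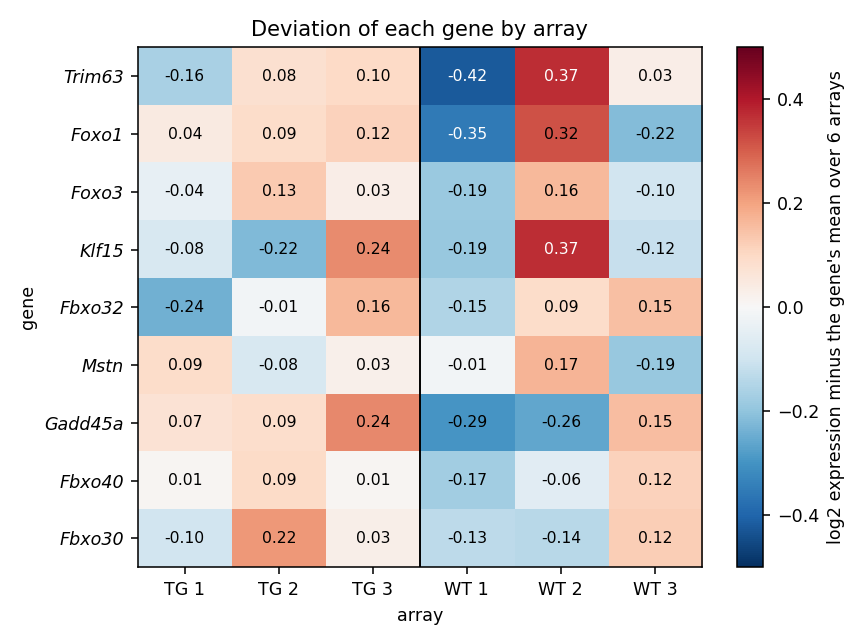
Each cell gives the log2 expression of a gene (rows) on an array (columns) minus that gene's mean over the 6 arrays, red above and blue below it. The top 4 rows share a high value on WT array 2 and a low one on WT array 1, and the bottom 3 rows are low on WT arrays 1 and 2 and high on WT array 3.

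Across mice, the highest Pearson correlations among these genes were those of Foxo1 with Foxo3, Trim63 with Foxo3, Fbxo30 with Fbxo40 and Trim63 with Foxo1, in that order. Whether they differ from each other or from that of Trim63 with Fbxo32 was not tested. Correlations were computed for all 36 pairs of the 9 genes over the 6 arrays, with exact permutation tests, two-sided, and adjustment over the 36 pairs. Of the pairs, 28 had r above 0 and 8 below. The lowest was Fbxo30 with Mstn (r = -0.76, exact permutation p = 0.0875), at -0.36 without TG array 2 and WT array 3. At an unadjusted p under 0.05, 4 pairs stood out with Pearson's r and 4 with Spearman's rho, and after adjustment none did (smallest adjusted p = 0.35 and 0.30 from the exact permutation tests). All but Fbxo30 with Fbxo40 join Trim63, Foxo1 and Foxo3 to each other, so these pairs are not independent. The same counts over other gene pairs were not computed. Foxo1 and Foxo3 had r = 0.93 (exact permutation p = 0.0097) and rho = 0.94 (exact permutation p = 0.0167). Without WT arrays 1 and 3, the farthest from the median for Foxo1, r was 0.75 over 4 arrays. Trim63 and Foxo3 had r = 0.87 (exact permutation p = 0.0292, rho = 0.89, p = 0.0333), and Trim63 and Foxo1 had r = 0.83 (exact permutation p = 0.0403, rho = 0.94, p = 0.0167). Without WT arrays 1 and 2, the farthest from the median for Trim63, these values were 0.48 and 0.07 over 4 arrays. The arrays left out were set by the first gene named in each pair, so they differ between pairs. Taking out a gene's own extreme arrays also narrows its range, so these drops do not show which mice carry a relation. Without WT array 2 alone, r was 0.89 for Foxo1 and Foxo3, 0.79 for Trim63 and Foxo3 and 0.70 for Trim63 and Foxo1.

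The F-box genes Fbxo30 and Fbxo40 formed the other close pair, with r = 0.83 (exact permutation p = 0.0347, rho = 0.89, p = 0.0333), which was 0.61 without TG array 2 and WT array 3. Fbxo40 and Gadd45a had r = 0.81 (exact permutation p = 0.0569, rho = 0.83, p = 0.0583) and 0.62 without WT arrays 1 and 3. Fbxo32 and Trim63 had r = 0.70 (exact permutation p = 0.119, rho = 0.66, p = 0.175), and without TG array 1 and WT array 1 it was -0.09. With each group centred on its own mean, r was 0.92 for Foxo1 and Foxo3, 0.91 for Trim63 and Foxo3, 0.89 for Trim63 and Foxo1, 0.81 for Fbxo30 and Fbxo40 and 0.72 for Fbxo32 and Trim63. These values pool both groups and draw on the same wide WT spread, the SD of Foxo1 being 0.36 in WT and 0.04 in TG.

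With 6 arrays and many genes, high correlations are common. For Trim63 the closest of 19937 genes were Lingo4 (r = 0.99), Hoga1 (r = 0.99) and Olfr353 (r = 0.99), and 242 genes lay above Foxo3, 371 above Foxo1 and 1099 above Fbxo32. For Fbxo32 they were Rbmxl2 (r = 0.998), Lin28a (r = 0.99) and Trpc7 (r = 0.99), with 1936 genes above Trim63. These ranks describe 6 arrays and carry no test.

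The rest of the atrophy pathway was read from 9 lists, with 217 of 230 genes measured. None of the 217 passed the limma test, and 10, or 4.61%, had an unadjusted p under 0.05, against 6.75% of all genes. TG and WT did not overlap for 25 of them, or 11.5%, against 12.3% of all genes. Their median difference was 0.01, with 118 of the 217 above 0, where 43.8% of all genes were. Counts above 0 and at an unadjusted p under 0.05 in the lists below stand beside the same 43.8% and 6.75% of all genes.

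**Figure D4:**
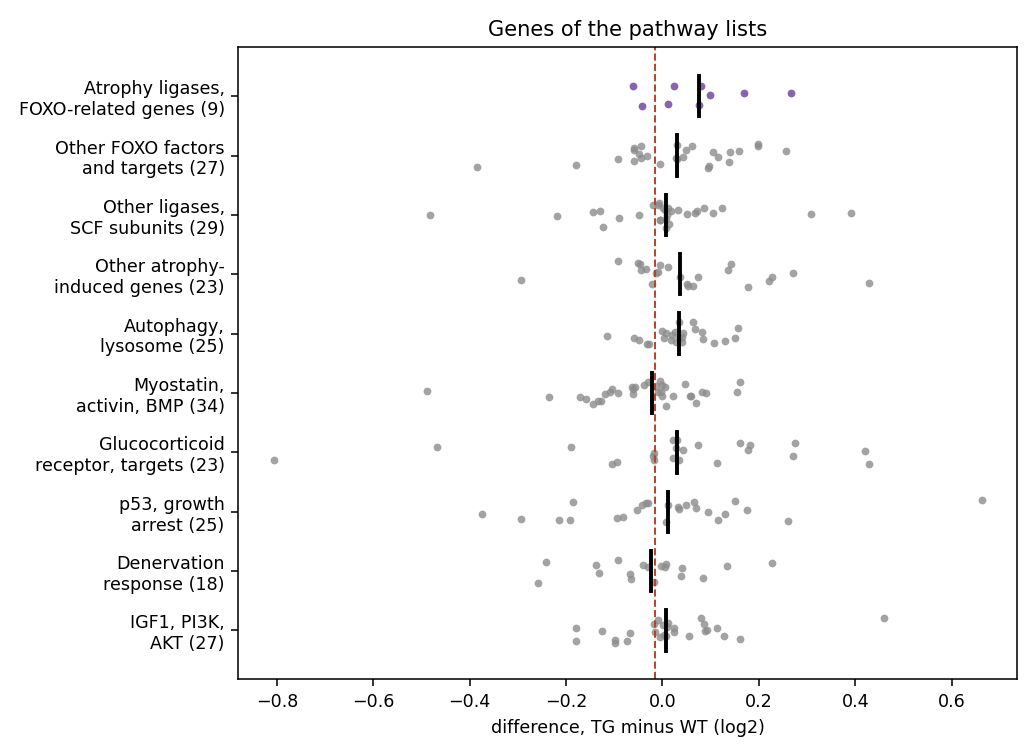
Differences between TG and WT (horizontal axis, log2) of every measured gene in the 9 pathway lists and of the 9 genes described (purple), 1 point per gene, with the number measured in brackets. Thick bars are list medians and the dashed line is the median over all genes, -0.02. Every pathway list median lies close to that line and to 0.

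Upstream of FOXO, the list of IGF1, PI3K and AKT regulators held 16 genes above 0 of 27, at a median of 0.01, with 0 genes at an unadjusted p under 0.05. Smallest in p were the mitochondrial coactivator gene Ppargc1a at 0.46 (SE 0.24), the acetyltransferase gene Ep300 at 0.13, Stk4, which encodes the FOXO kinase MST1, at -0.13, and Akt1 at -0.10. Ppargc1a read 9.50, 10.41 and 9.50 in TG and 9.15, 9.34 and 9.55 in WT, so that TG array 2 stood far above the rest, and without it the difference was 0.16. None of these passed (limma, adjusted p at least 0.777).

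Other FOXO factors and FOXO targets held 16 genes above 0 of 27, at a median of 0.03, with 1 gene at an unadjusted p under 0.05. This was the repressor gene Bcl6, at -0.38 (SE 0.16; limma, adjusted p = 0.738), and at -0.21 without WT array 3. The pyruvate dehydrogenase kinase gene Pdk4 stood at 0.16 (SE 0.08), Cited2 at 0.20 and the thioredoxin inhibitor gene Txnip at 0.20. In the list of other ligases and SCF subunits, 17 of 29 genes were above 0, the median was 0.01 and 3 genes had an unadjusted p under 0.05. Trim72, the ligase and membrane repair gene, read 9.93, 9.99 and 9.95 in TG and 10.38, 10.50 and 10.44 in WT, with no overlap. Its difference was -0.48 (SE 0.07; limma, adjusted p = 0.299), and it passed where the variance was modelled with an intensity trend (limma, adjusted p = 0.0167). Cblb, which marks IRS1 for degradation in unloaded muscle, was at 0.39 (SE 0.10; limma, adjusted p = 0.660), Nedd4l at -0.22 and the conjugating enzyme gene Ube2d1 at -0.14.

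Downstream, other atrophy-induced genes of the ubiquitin, proteasome and metallothionein groups held 13 genes above 0 of 23, at a median of 0.04, with 1 gene at an unadjusted p under 0.05. Ufd1, a cofactor of the segregase VCP, was at 0.22 (SE 0.08), Gadd45b at -0.29 (SE 0.13) and the proteasome genes Psma1 and Psmb4 at 0.14 and -0.09. Gadd45b, a paralog of Gadd45a, thus had the opposite sign, and neither passed. Autophagy and lysosome genes had 19 of 25 above 0 with a median of 0.03 and 0 genes at an unadjusted p under 0.05. The leading values were 0.15 for the LC3 protease gene Atg4b, 0.16 for Map1lc3a, 0.11 for Uvrag and -0.11 for the lysosomal regulator gene Tfeb.

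The myostatin, activin and BMP list held 11 genes above 0 of 34, at a median of -0.021, beside -0.016 over all genes, with 1 gene at an unadjusted p under 0.05. Id1, a BMP target, was 7.56, 7.66 and 7.76 in TG and 8.15, 8.41 and 7.89 in WT, so that the groups did not overlap, at a difference of -0.49 (SE 0.13; limma, adjusted p = 0.660). The myostatin inhibitor genes Fstl3 and Wfikkn1 were at -0.23 and -0.17 and the activin subunit gene Inhbb at 0.16. Genes of the p53 and growth-arrest list, to which Cdkn1a and Gadd45a relate, had 14 of 25 above 0 and a median of 0.01, with 1 gene at an unadjusted p under 0.05. The cyclin-dependent kinase inhibitor genes Cdkn1c and Cdkn1b were at -0.19 and 0.12 and the stress factor gene Ddit3 at -0.21. Denervation-response genes had 7 of 18 above 0 and a median of -0.02, with 2 at an unadjusted p under 0.05. These were Musk, at -0.24, and the embryonic acetylcholine receptor subunit gene Chrng, at -0.26, while Myh3 and the deacetylase gene Hdac5 stood at -0.14 and -0.09. Chrng (5.57 to 6.12 over the arrays), Myh3 (5.59 to 5.92), Inhbb (6.12 to 6.44) and Wfikkn1 (6.07 to 6.45) were dim, near or below the array medians. Whether they rose above background is not known.

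Glucocorticoid receptor and target genes, measured apart from Klf15, had 15 of 23 above 0 and a median of 0.03, with 1 gene at an unadjusted p under 0.05. The MAP kinase phosphatase gene Dusp1 read 11.08, 10.83 and 10.75 in TG and 11.60, 12.12 and 11.36 in WT. All TG values lay below the WT values, with a difference of -0.81 (SE 0.19), and it did not pass (limma, adjusted p = 0.627). Angptl4 was at 0.27, Arrdc2 at 0.42 and Tat at -0.47. Arrdc2 was at 0.15 without WT array 3, and Tat at -0.11 without TG array 3. Tat was lowest on TG array 3, as was the mean of the hepatocyte transcripts given below. Whether they are linked was not tested.

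This list also stood high on WT array 2. Of its 23 genes, 13 (56.5%) had their highest value there, against 15.5% of all genes, and 10 (43.5%) had their lowest on WT array 3, against 12.1%. High counts there were not confined to this list. Satellite cell markers, none of which is in this list, were highest on WT array 2 in 5 of 9. Other atrophy-induced genes were so in 7 of 23 (30.4%), among them Cebpd and Glul, which are in both lists. Other FOXO factors and targets were so in 5 of 27 (18.5%), among them Ddit4, which this list also holds. Autophagy genes were so in 1 of 25. The mTORC1 inhibitor gene Ddit4 was at 10.25 on WT array 2 and between 8.08 and 9.26 on the other arrays. Fkbp5, which encodes a cochaperone of the receptor, was at 9.62 there and between 8.56 and 9.27 elsewhere. For the clock gene Per1 the values were 9.55 and 8.58 to 9.25. Nr3c1, the receptor gene itself, was at 9.28 on that array, its lowest of the 6. Over the 6 arrays 7 of the 23 genes had r above 0.8 with Foxo1, against 2.08% of all genes, and 2 with Trim63, against 2.53%. Other lists also exceeded the Foxo1 share, such as other atrophy-induced genes at 4 of 23 (17.4%) and autophagy genes at 2 of 25 (8%). The myostatin list, at 0 of 34, and the denervation list, at 0 of 18, did not. WT arrays 2 and 3 were picked out after their values were seen, and these counts and correlations carry no test.

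**Figure D5:**
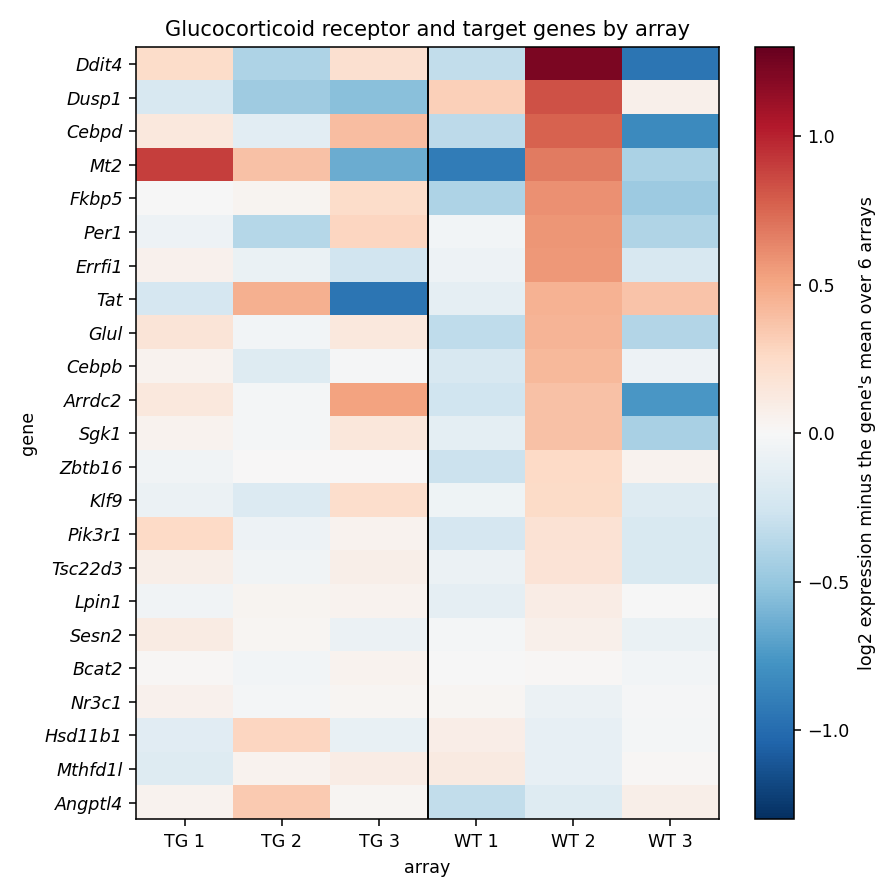
Log2 expression of each glucocorticoid receptor and target gene (rows) on each array (columns) minus the gene's mean over the 6 arrays. The WT 2 column is red in most rows, and Ddit4 has the largest excess there.

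Other cell types of the tissue were followed through marker lists, because FOXO, Gadd45a and Klf15 transcripts are not confined to muscle fibres. In bulk tissue, fewer cells of a type and less RNA per cell cannot be told apart. Macrophage markers had 12 of 14 above 0 (median 0.17; Itgam 0.57, Tyrobp 0.26), adipocyte markers 6 of 9 (median 0.16; Adipoq 0.64, Plin1 0.21), fibroblast markers 8 of 10 (median 0.13; Pdgfra 0.16, Pi16 -0.28) and bone and osteoclast transcripts 8 of 10 (median 0.20; Ctsk 0.57, Acp5 0.69). Mean log2 levels of these lists ranged over 6.65 to 6.95 in TG and 6.50 to 6.78 in WT for macrophages, 6.31 to 6.43 and 6.21 to 6.27 for adipocytes, 9.12 to 9.46 and 9.15 to 9.24 for fibroblasts, and 5.83 to 6.51 and 5.68 to 5.95 for bone. Several of these values moved when 1 array was left out. Of the 10 bone and osteoclast transcripts, 8 were highest on TG array 1, and without it the median was 0.11, with Acp5 at 0.43 and Ctsk at 0.39. For macrophage markers the median was 0.02 without WT array 3, with 7 of 14 above 0, and 0.32 without WT array 2. For adipocyte markers it was 0.05 without TG array 2, and for fibroblast markers 0.22 without TG array 3. Endothelial markers had 3 of 10 above 0 (median -0.05; Egfl7 -0.25, Pecam1 0.14), lymphocyte markers 3 of 9 (median -0.16; Cd3g -0.30, Cd8a -0.24), nerve markers 1 of 7 (median -0.11; Ngfr -0.17, Nefm 0.18) and erythroid transcripts 1 of 3 (median -0.19; Epb42 -0.34, Alas2 0.15). Some named markers were dim, with means below the array medians. Among them were Cd3g (TG 3.76, WT 4.07), Nefm (3.88, 3.70), Epb42 (4.40, 4.74), Itgam (5.64, 5.06) and Adipoq (5.93, 5.29).

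Satellite cell markers had 2 of 9 above 0 (median -0.01; Myod1 -0.48, Chodl 0.22), and fibre markers 2 of 14 (median -0.01; Myh2 -0.30, Myh1 0.06). Hepatocyte transcripts had 1 of 17 above 0 (median -0.61; Apoa1 -0.78, Apoh -0.30), and their mean level ranged from 5.68 on TG array 3 to 7.84 on TG array 2, with 6.88 to 7.41 in WT. Their median was -0.07 without TG array 3 and -1.26 without TG array 2. None of the 112 markers passed the limma test, and 13, or 11.6%, had an unadjusted p under 0.05, against 6.75% of all genes. Their part in the values of the 9 genes was not tested.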

How the data were processed

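The values analysed are log2 expression, which the authors deposited as 1 table with a row for each of 35557 probe sets and a column for each of 6 arrays, from total RNA of frozen skeletal muscle extracted with Trizol and cleaned on RNeasy columns, per the labels' protocols. The summarisation and normalization behind the deposited log2 values and the genome build are not stated in any label or header; the log2 scale was read from their range, 1.41 to 15.1. Raw intensities were not used here, so brightness over background is unknown and dim probe sets stayed in. Per-sample columns left unused numbered 0.

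Symbols came from the platform annotation: 21789 probe sets had 1 symbol, 1621 several and 12147 none, and only the first were named. The brightest probe set stood for a gene. TG was compared with WT by lmFit and eBayes of limma 3.58.1 (R 4.3.3), two-sided, with Benjamini-Hochberg adjustment over 19938 genes and a threshold of 0.05; the steps were tested on simulated data. Intervals are at 95%. Motifs were searched in RefSeq promoter windows of GRCm38.p6. Figures were drawn with matplotlib 3.10.9. The members, lists and tests were chosen with earlier results of these data known. Named genes were all members, the 4 of each pathway list and the 2 of each marker list with the smallest p. Socs3 was added, as were the 3 genes most correlated with Fbxo32 and with Trim63. Gadd45b was among the 4 in 2 lists, and Ddit4, Fkbp5, Per1 and Nr3c1 were chosen after their values were seen. The lists share other genes too, such as Cdkn1b (FOXO targets and p53) and Ddit4 (FOXO targets and glucocorticoid). Cebpd, Glul and Mt2 are in both the atrophy-induced and the glucocorticoid list. The alternatives tried left out each array in turn, quantile normalized the values or set arrays to a common median, took the mean over the probe sets of a gene, tested every probe set singly, kept only genes brighter than the median gene, weighted arrays, used robust moderation or an intensity trend, or read unadjusted p; correlations with each group centred, or without WT array 2, and the named genes and marker lists with each array left out, were added after seeing the data.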

Additional observations from a re-analysis of the deposited data

How the results depend on the processing

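None of the 9 genes passed the limma test under any of the 14 alternative settings (smallest adjusted p = 0.722, for Foxo1 without WT array 2); at an unadjusted p under 0.05 the count was also 0, tested with all 6 arrays. Their median difference, 0.08, ranged from 0.008 to 0.13 when 1 array was left out. Gadd45a, Foxo1, Foxo3, Fbxo30 and Fbxo40 kept their sign under all 14 settings, but their size moved. Each gene has 1 probe set, so settings that changed only the test or the genes tested left the differences unchanged. These were the intensity trend, robust moderation, brighter genes only, every probe set singly and the mean over probe sets. None of them could turn a sign. With 1 array left out, the difference ranged from 0.015 to 0.185 for Fbxo30 (TG array 2, WT array 3), from 0.008 to 0.153 for Fbxo40 (WT array 1, WT array 3), from 0.007 to 0.181 for Foxo3 (WT array 1, WT array 2), from 0.03 to 0.37 for Foxo1 (WT array 1, WT array 2) and from 0.19 to 0.41 for Gadd45a (WT array 1, WT array 3). The sign turned for the other 4 when 1 array was left out. The difference then ranged from -0.16 to 0.04 for Fbxo32, with 0.044 without TG array 1. It ranged from -0.20 to 0.20 for Trim63, with values of -0.03 without TG array 2 or TG array 3 and -0.20 without WT array 1. For Mstn it ranged from -0.07 to 0.11, with -0.02 when TG array 1 was left out and -0.066 when WT array 3 was, and for Klf15 from -0.17 to 0.13, where 0.06 came from leaving out TG array 2 and 0.13 from leaving out WT array 2. The cause was not tested. Of the pathway genes, 1 passed with an intensity trend, Trim72, and 0 with quantile normalization, with a common array median or without any 1 array. No paired analysis was possible because the labels give no replicate numbers that tie a TG mouse to a WT mouse. Brightness over background could not be set for any probe set.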
